A study of Mus musculus with 117 samples.

Results

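Chromatin states over 10 glutathione S-transferase genes were read in hepatocytes of 9 inbred strains of mice. The members were taken from a list of names: Gsta1, Gsta2, Gsta3 and Gsta4 of the alpha class, Gstm1, Gstm2 and Gstm3 of the mu class, Gstp1 and Gstp2 of the pi class, and Gstt1 of the theta class. All 10 were found among the 20665 autosomal protein-coding genes of the annotation (GRCm38.p6). Each gene's span was padded by 2 kb on both sides. It was read as 200-bp bins, which gave 727 distinct bins of the 5251556 bins that lie in padded autosomal protein-coding genes.

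Of the strains, C57BL/6J, A/J, DBA/2J, 129S1/SvImJ, NZO/HlLtJ and NOD/ShiLtJ are laboratory strains, and WSB/EiJ, CAST/EiJ and PWK/PhJ are derived from wild mice, a division taken from general knowledge. All mice were females of 12 weeks, and the labels name no transgene or treatment. Each strain had 13 libraries from chromatin immunoprecipitation and sequencing (ChIP-seq): 4 histone marks (H3K4me1, H3K4me3, H3K27ac and H3K27me3) in each of 3 mice, and 1 input. The deposited file of a strain is a single segmentation, in which each bin carries 1 of 14 state numbers, so a strain is 1 value and the spread between mice is not seen. Read counts were not analysed here and the sequencing depth is unknown.

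Glutathione S-transferases join the tripeptide glutathione to reactive molecules such as drug metabolites, epoxides and products of lipid oxidation, and are among the abundant soluble proteins of hepatocytes. Several of their genes are known targets of the transcription factor Nfe2l2, which binds antioxidant response elements when oxidants or electrophiles release it from Keap1. Of the histone marks, H3K4me3 is known from active gene starts, H3K4me1 and H3K27ac from enhancers and active genes, and H3K27me3 from Polycomb repression. Which marks make up each state was not given in the sources used here, so the numbers serve only as names. States 1 to 4 were counted as 1 class because earlier results of these data found them to be the most frequent states at the ends of hepatocyte genes. State 14 is the most widespread state.

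Marker genes of liver cell types were read by the same measure. States 1 to 4 were chosen for their frequency at hepatocyte genes in these data. A high share at hepatocyte markers is therefore built in and cannot check the labelled cell type. The 19 hepatocyte marker genes found of 20 listed had a median of 98.8% of their bins in states 1 to 4, with Cyp2e1 the lowest at 49.1%. The medians were 0.0837% for 8 Kupffer cell and leukocyte markers (Marco, Cd5l and Timd4 at 0 in all strains, Cd79a highest at 24.3%), 0 for 6 stellate markers (5 at 0), 0.229% for 5 bile duct markers (Krt19 and Krt7 at 0, Sox9 highest at 20.6%) and 10.2% for 7 endothelial markers, of which Lyve1 had 85.5%. Strain medians of the hepatocyte list ran from 97% to 100%, and those of the endothelial list from 0 to 14.6%; the part of other cells in the results below was not tested. Over all gene bins the share in states 1 to 4 was 13.2% ± 1.43 (SD, n = 9), lowest in NOD/ShiLtJ at 11.2% and A/J at 11.6%, and highest in 129S1/SvImJ at 15.6%.

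The 250 bases before the start are shown for 4 members, as RefSeq gives them for GRCm38.p6, which is the C57BL/6J sequence. Gstp1 and Gstp2 were the members whose start bin differed in state between the most strain pairs, 20 and 15 of 36. The next 5 members tied at 8 pairs, and of these Gsta3 and Gstm3 were taken after their values were seen. The window of Gstp1 is chr19:4037913-4038162 (minus strand), that of Gstp2 chr19:4042222-4042471 (minus strand), that of Gsta3 chr1:21240335-21240584 (plus strand) and that of Gstm3 chr3:107969175-107969424 (minus strand). Capitals mark TGACNNNGC, the core of the antioxidant response element, or TGANTCA, a site of the AP-1 type, and Gstm3 holds neither.
Gstp1: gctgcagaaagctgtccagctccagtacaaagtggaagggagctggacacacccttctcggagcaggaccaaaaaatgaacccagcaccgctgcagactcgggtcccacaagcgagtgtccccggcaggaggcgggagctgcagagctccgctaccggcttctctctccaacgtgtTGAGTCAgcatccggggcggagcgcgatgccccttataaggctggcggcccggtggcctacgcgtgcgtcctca
Gstp2: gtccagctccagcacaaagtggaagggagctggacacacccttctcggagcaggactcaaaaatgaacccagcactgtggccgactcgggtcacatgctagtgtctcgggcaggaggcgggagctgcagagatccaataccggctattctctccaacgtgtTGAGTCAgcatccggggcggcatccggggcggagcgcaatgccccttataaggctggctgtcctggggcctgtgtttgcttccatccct
Gsta3: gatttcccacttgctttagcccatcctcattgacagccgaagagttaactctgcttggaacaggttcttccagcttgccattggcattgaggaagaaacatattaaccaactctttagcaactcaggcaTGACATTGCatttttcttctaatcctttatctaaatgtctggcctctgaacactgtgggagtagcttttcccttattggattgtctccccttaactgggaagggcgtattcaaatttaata
Gstm3: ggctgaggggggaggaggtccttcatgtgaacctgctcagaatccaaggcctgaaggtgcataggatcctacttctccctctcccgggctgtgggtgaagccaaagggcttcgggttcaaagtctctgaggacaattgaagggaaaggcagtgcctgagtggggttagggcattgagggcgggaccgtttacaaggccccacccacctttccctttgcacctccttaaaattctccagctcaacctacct

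Matching on both strands over 300 bases, 250 before and 50 after the start, TGACNNNGC was found in 13.3% of 16457 promoters. Among the 9 members with a listed promoter it occurred only in Gsta3, as TGACATTGC, whose first base lies 121 bases before the start. TGANTCA was found in 7.17% of all promoters and in Gstp1 and Gstp2, as TGAGTCA in both, beginning 74 and 89 bases before their starts. In both it is followed by GC, so the stretch differs from TGACNNNGC only by a G in place of the C after TGA. Wider forms of the antioxidant response element were not searched, so its absence from the other members is not shown. TATAAA was found in 13.5% of all promoters, before the second listed start of Gstm1 (30 bases) and on the opposite strand in Gsta2 (246 bases). The last 2 motifs were added after the sequences were seen, and the motifs searched do not overlap in these members. A match is a description of the letters only. The aligned 250 bases were 78.5% identical between Gstp1 and Gstp2, 71.4% between Gsta1 and Gsta2, and 54.8% or less in the other 34 pairs of members.

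**Figure D1:**
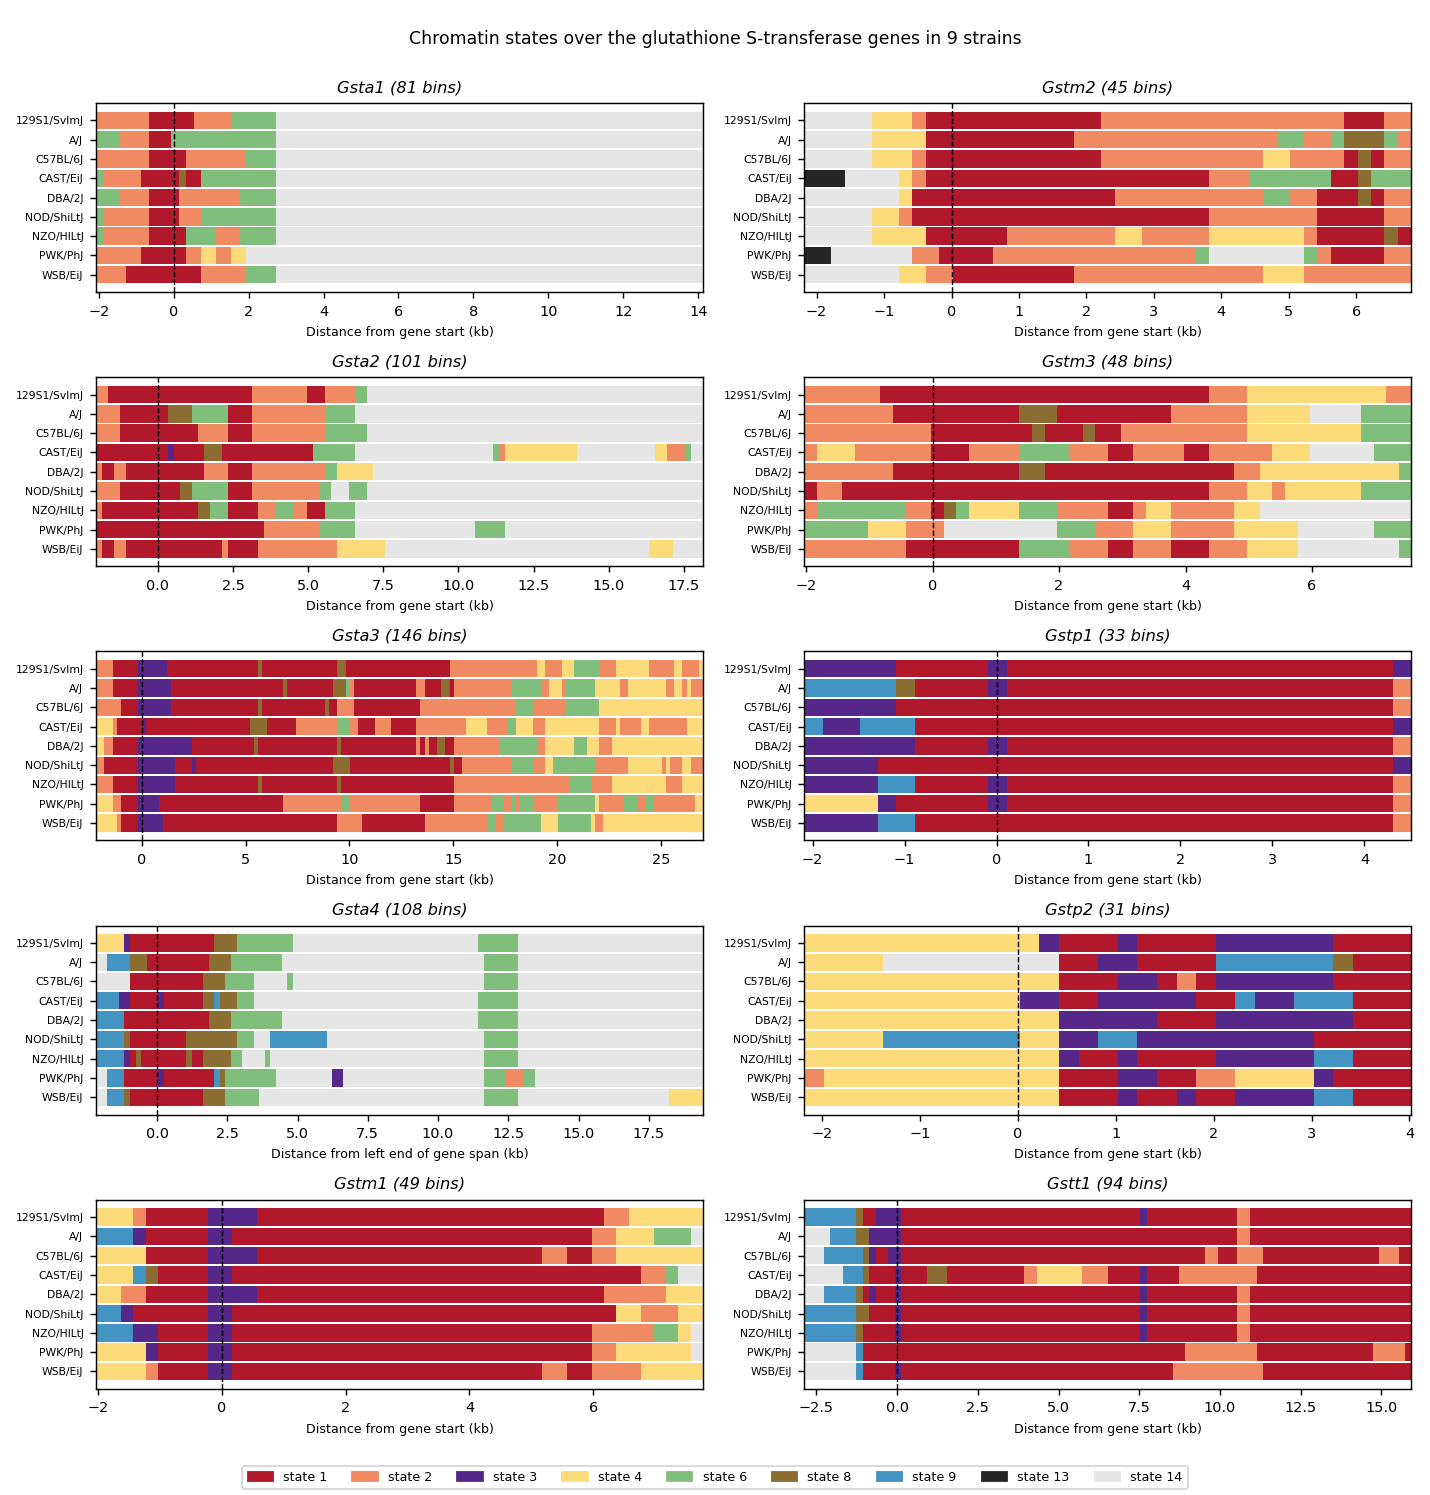
State of each 200-bp bin over the 10 genes with 2 kb on both sides, 1 row per strain and 1 colour per state. The horizontal axis is the distance in kb from the gene start along the gene's own direction (for Gsta4, from the left end of its span), and the dashed line marks 0; Gstm1 and Gstp1 look alike in all rows over most of the gene, while Gstm3 differs from row to row.

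On average over strains states 1 to 4 took most bins of 7 members, and a minority at Gsta1, Gsta2 and Gsta4. The mean share of bins in states 1 to 4 was at least 75% in 7 of the 10 members, against 6.88% of all 20665 genes, whose median share was 8.13%. States 1 to 4 were chosen for their frequency at hepatocyte genes in these data. This comparison with all genes is not independent of that choice. All members but Gsta3 (146 bins) had fewer bins than the all-gene median of 109, so the fixed padding weighs more in them. The part of gene length in this comparison was not tested. From high to low the means (± SD over 9 strains) were 95.3% ± 6.62 for Gstp1, 95.2% ± 5.86 for Gstm1, 89.6% ± 1.38 for Gstt1, 89.5% ± 4.04 for Gsta3, 88.2% ± 17.7 for Gstp2, 79.0% ± 10.8 for Gstm2 and 77.1% ± 18.9 for Gstm3. Then followed Gsta2 at 38.7% ± 9.0, Gsta1 at 19.2% ± 5.52 and Gsta4 at 14.1% ± 3.89. The SD over strains was at least 5 percentage points in 7 members, against 33.3% of all genes. Genes with few bins in states 1 to 4 have a small SD: among the 9637 genes with a mean share of at least 10% the median SD was 6.93 points, above the members' median of 6.24.

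Neighbours in this order were compared within strains with exact sign-flip permutation (two-sided, 9 strains, smallest possible p 0.0039), adjusted by the Benjamini-Hochberg method over the 9 pairs. The order came from the same means, so the direction of each mean step was fixed before testing. The p-values do not allow for that choice of pairs. The step from Gstm3 to Gsta2 was 38.4 points ± 19.4 (SD) and went the same way in 9 of 9 strains (exact test, adjusted p = 0.0176). The step from Gsta2 to Gsta1 was 19.5 points ± 8.15, also in 9 of 9 strains (exact test, adjusted p = 0.0176). Gsta1 lay above Gsta4 by 5.11 points ± 4.07 in 8 of 9 strains (exact test, adjusted p = 0.0352), a call that was lost when any 1 strain other than A/J or CAST/EiJ was left out (adjusted p from 0.0527 to 0.0703). With all states other than 14 counted, Gsta1 minus Gsta4 was -5.90 points (exact test, adjusted p = 0.0469). With states 1 to 4 the other 6 steps did not pass. The nearest to it was Gstm1 above Gstt1 by 5.64 points ± 5.42 in 7 of 9 strains (exact test, adjusted p = 0.0527), which passed without A/J at 6.80 points (exact test, adjusted p = 0.0352).

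**Figure D2:**
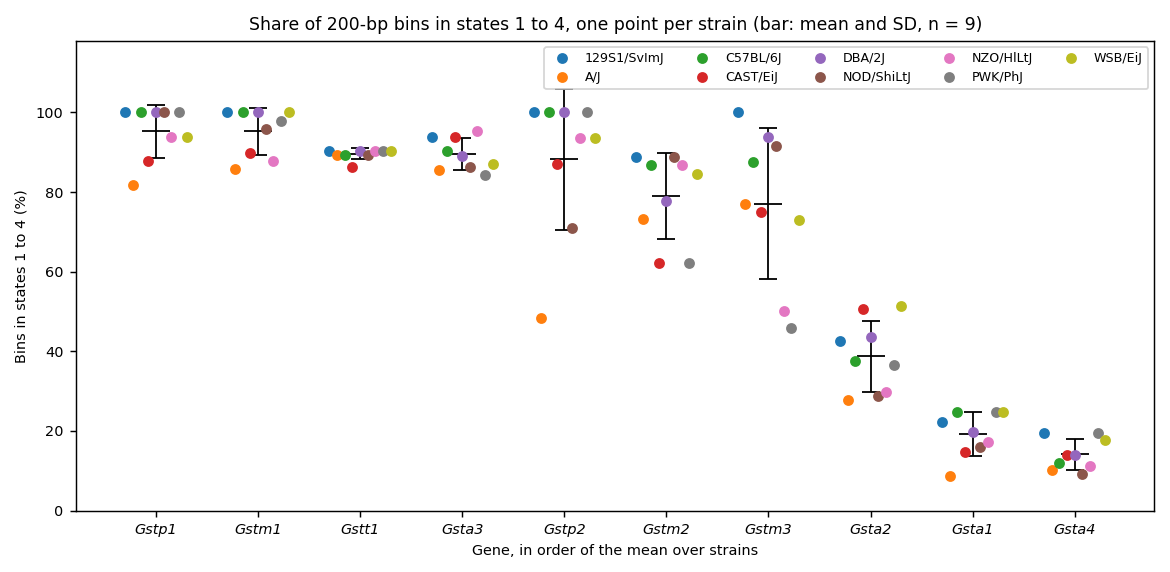
Percentage of each gene's 200-bp bins in states 1 to 4 (vertical axis), 1 point per strain, with the mean and SD over 9 strains; genes are ordered by their mean. A drop separates Gstm3 from Gsta2, and single strains lie far below the rest at Gstp2 (A/J, 48.4%) and Gstm3 (PWK/PhJ, 45.8%, and NZO/HlLtJ, 50%).

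The alpha-class genes are best known for peroxidase activity and for binding bulky compounds, and Gsta3 is known for the conjugation of the aflatoxin B1 epoxide in mouse liver. Gsta3 lies on chromosome 1, at chr1:21240565-21265575, while Gsta1 (chr9:78230669-78242683), Gsta2 (chr9:78331018-78347192) and Gsta4 (chr9:78191966-78209349) lie together on chromosome 9. Gsta3 had 93.8% of its 146 bins in states 1 to 4 in 129S1/SvImJ, 85.6% in A/J, 90.4% in C57BL/6J, 93.8% in CAST/EiJ, 89.0% in DBA/2J, 86.3% in NOD/ShiLtJ, 95.2% in NZO/HlLtJ, 84.2% in PWK/PhJ and 87.0% in WSB/EiJ. All strains thus lay within 11 points of each other, yet 23 of the 146 bins were in the same state in all 9. The difference between Gsta3 and Gsta4 was 75.4 points ± 5.67 in 9 of 9 strains (exact sign-flip permutation test, adjusted over 6 paralog pairs, p = 0.00781).

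At Gsta3 the strains had similar sums of states 1 to 4 but different arrangements of them. Its span lies within that of the long noncoding RNA gene Gm28836, and ChIP-seq cannot assign a state to 1 of the 2. Its start bin was in state 3 in 8 strains and in state 1 in CAST/EiJ, the promoter with the antioxidant response element core printed above. Within 5 bins of the start CAST/EiJ had 1 bin in state 3, PWK/PhJ 5 and the other strains 6. Towards the far end of the gene, states 2, 4 and 6 took the place of state 1. The discordance, meaning the percentage of bins whose states differ, averaged over the 36 strain pairs, was 28.0% in the part of the padded span nearer the start and 44.9% in the part farther from it, divided at its middle. PWK/PhJ had 11 bins in state 2 where the other 8 strains had state 1.

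At Gsta1 and Gsta2, a pair of closely similar copies that are inducible in mouse liver, bins in states 1 to 4 lay mostly on the side of the start. Beyond the middle of the padded span the mean share was 0 at Gsta1 and 4.79% ± 11.7 (SD, n = 9) at Gsta2. Gsta1 had 22.2% of its 81 bins in states 1 to 4 in 129S1/SvImJ, 8.64% in A/J, 24.7% in C57BL/6J, 14.8% in CAST/EiJ, 19.8% in DBA/2J, 16% in NOD/ShiLtJ, 17.3% in NZO/HlLtJ, and 24.7% in both PWK/PhJ and WSB/EiJ. The part of the padded span beyond its middle had no bin in states 1 to 4 in any strain, and 57 bins were in state 14 in all of them. A/J was the lowest and stood alone at the start bin, with state 6 where the other 8 strains had state 1, and it had 17 bins in state 6.

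Gsta2 had 42.6% of its 101 bins in states 1 to 4 in 129S1/SvImJ, 27.7% in A/J, 37.6% in C57BL/6J, 50.5% in CAST/EiJ, 43.6% in DBA/2J, 28.7% in NOD/ShiLtJ, 29.7% in NZO/HlLtJ, 36.6% in PWK/PhJ and 51.5% in WSB/EiJ. CAST/EiJ and WSB/EiJ were the highest. A/J was the lowest, as it was at Gsta1. Its start bin was in state 1 in all 9 strains. CAST/EiJ had 12 bins in state 4 where the other 8 strains had state 14, in the part of the gene away from its start, and WSB/EiJ had 3 such bins elsewhere. The padding beyond the far end of Gsta2 also holds part of the gene Omt2b. Gsta2 exceeded Gsta1 in 9 of 9 strains (exact sign-flip permutation test, adjusted over 6 paralog pairs, p = 0.00781), and no bin belongs to both padded spans.

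Gsta4, whose enzyme conjugates the lipid aldehyde 4-hydroxynonenal, had the lowest mean. Its share was 19.4% of 108 bins in 129S1/SvImJ, 10.2% in A/J, 12.0% in C57BL/6J, 13.9% in CAST/EiJ, 13.9% in DBA/2J, 9.26% in NOD/ShiLtJ, 11.1% in NZO/HlLtJ, 19.4% in PWK/PhJ and 17.6% in WSB/EiJ. 129S1/SvImJ and PWK/PhJ were highest at the same value and NOD/ShiLtJ was lowest. State 14 filled 49 bins in all strains. Of its 25 bins in which 1 strain differed from the other 8, NOD/ShiLtJ held 8, PWK/PhJ 7, WSB/EiJ 6, and A/J and NZO/HlLtJ 2 each. They included 6 bins of state 9 in NOD/ShiLtJ and 6 of state 4 in WSB/EiJ, all in place of state 14. Its strand and start were not in the promoter table, so no start bin was read.

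The mu-class genes conjugate epoxides and quinones, and Gstm1 encodes a main mu-class enzyme of mouse liver. The 3 members stand side by side on the minus strand of chromosome 3, with Gstm1 at chr3:108012250-108017973, Gstm2 at chr3:107981702-107986420 and Gstm3 at chr3:107963696-107969174. Gstm1 was at 100% of its 49 bins in WSB/EiJ, DBA/2J, C57BL/6J and 129S1/SvImJ, 98.0% in PWK/PhJ, 95.9% in NOD/ShiLtJ, 89.8% in CAST/EiJ, 87.8% in NZO/HlLtJ and 85.7% in A/J. Its start bin was in state 3 in all 9 strains, and a run of state 1 of 4.6 to 6.6 kb followed. Its strains differed mostly in the padding: discordance was 20.7% with it and 6.13% over the gene body alone.

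Gstm3 varied most of all members. It was at 100% of its 48 bins in 129S1/SvImJ, 77.1% in A/J, 87.5% in C57BL/6J, 75% in CAST/EiJ, 93.8% in DBA/2J, 91.7% in NOD/ShiLtJ, 50% in NZO/HlLtJ, 45.8% in PWK/PhJ and 72.9% in WSB/EiJ. PWK/PhJ and NZO/HlLtJ were well below the other 7, whose lowest was 72.9%. No bin of Gstm3 was in 1 state in all 9 strains. State 1 took 30 bins in NOD/ShiLtJ, 26 in 129S1/SvImJ, 25 in DBA/2J, 19 in A/J, 14 in WSB/EiJ, 13 in C57BL/6J, 7 in CAST/EiJ, 3 in NZO/HlLtJ and 0 in PWK/PhJ. The longest unbroken run of state 1 accordingly ranged from 5.8 kb in NOD/ShiLtJ to 0.4 kb in NZO/HlLtJ and none in PWK/PhJ.

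The start bin of Gstm3 was within states 1 to 4 in all 9 strains, as state 1 in 8 and as state 2 in PWK/PhJ. Directly after it PWK/PhJ turned to state 14 and NZO/HlLtJ to states 8, 6 and 4, while 129S1/SvImJ, A/J, C57BL/6J, DBA/2J, NOD/ShiLtJ and WSB/EiJ kept state 1 for 5 further bins. PWK/PhJ had 15 bins of state 14 in all and NZO/HlLtJ 12. The largest difference between 2 strains was 92% of bins (DBA/2J against NZO/HlLtJ, and against PWK/PhJ) and the smallest 17% (129S1/SvImJ against DBA/2J).

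**Figure D3:**
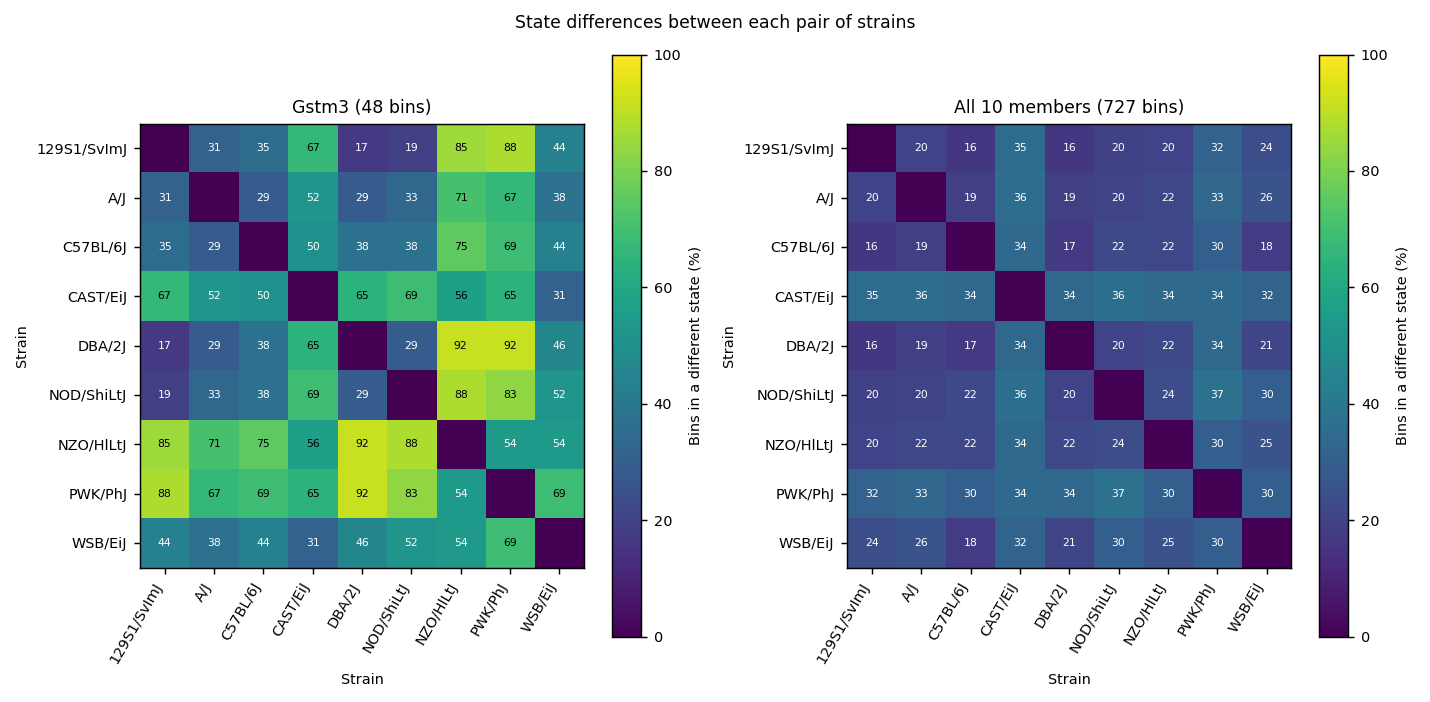
Percentage of bins in a different state for each pair of strains, over Gstm3 (left) and over all 10 genes (right), on 1 colour scale. At Gstm3 NZO/HlLtJ and PWK/PhJ differ from 129S1/SvImJ, DBA/2J and NOD/ShiLtJ in 83% to 92% of bins, whereas over all genes no pair passes 37.1%.

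Gstm2 had 88.9% of its 45 bins in states 1 to 4 in 129S1/SvImJ, 73.3% in A/J, 86.7% in C57BL/6J, 62.2% in CAST/EiJ, 77.8% in DBA/2J, 88.9% in NOD/ShiLtJ, 86.7% in NZO/HlLtJ, 62.2% in PWK/PhJ and 84.4% in WSB/EiJ. CAST/EiJ and PWK/PhJ were the lowest, at the same value, and A/J came next. They were also the only strains with state 13 in any member: it took 3 bins in CAST/EiJ and 2 in PWK/PhJ before the start of Gstm2. NZO/HlLtJ, low at Gstm3, was not low at Gstm2.

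Within the mu cluster Gstm1 was above Gstm2 by 16.2 points ± 10.7 in 9 of 9 strains (exact sign-flip permutation test, adjusted p = 0.00781) and above Gstm3 by 18.2 points ± 17.4 in 8 of 9, with 1 tie (adjusted p = 0.0117). Both depended on the region read. Over the gene bodies alone Gstm1 exceeded Gstm2 by 4.00 points (exact test, adjusted p = 0.3), and with 5 kb of padding Gstm1 exceeded Gstm3 by 3.44 points (exact test, adjusted p = 0.641). Gstm2 and Gstm3 differed by 1.93 points ± 16.9 (exact test, adjusted p = 0.777), and Gstm2 was the higher by 9.49 points over the gene bodies alone (exact test, adjusted p = 0.0234).

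The pi-class pair lies on chromosome 19, Gstp1 at chr19:4035411-4037912 and Gstp2 at chr19:4040288-4042221, both on the minus strand. Gstp1, the main pi-class enzyme, was at 100% of its 33 bins in C57BL/6J, 129S1/SvImJ, DBA/2J, NOD/ShiLtJ and PWK/PhJ, 93.9% in NZO/HlLtJ and WSB/EiJ, 87.9% in CAST/EiJ and 81.8% in A/J. Every bin outside states 1 to 4 lay in the padding on the start side, and the part beyond the middle was at 100% in all strains. Its start bin was in state 3 in 129S1/SvImJ, A/J, DBA/2J, NZO/HlLtJ and PWK/PhJ and in state 1 in the other 4, which is a change within states 1 to 4.

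Gstp2, the close copy of Gstp1, had 100% of its 31 bins in states 1 to 4 in PWK/PhJ, DBA/2J, C57BL/6J and 129S1/SvImJ, 93.5% in NZO/HlLtJ and WSB/EiJ, 87.1% in CAST/EiJ, 71.0% in NOD/ShiLtJ and 48.4% in A/J. A/J and NOD/ShiLtJ lay below the other 7, whose lowest was 87.1%. The start of Gstp2, whose sequence is printed above beside that of Gstp1, was in state 4 in 7 strains, in state 14 in A/J and in state 9 in NOD/ShiLtJ. A/J had 9 bins in state 14 and 6 in state 9, and NOD/ShiLtJ had 9 in state 9. Most of these bins lay in the padding, and over the gene body alone the mean share over strains was 93.9%. These 2 strains also had the lowest shares of states 1 to 4 over all gene bins, 11.6% and 11.2%, and the part of that in the result was not tested.

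Gstp1 was above Gstp2 in 5 strains and equal to it in 4, by 7.11 points ± 13.7 (exact sign-flip permutation test, adjusted p = 0.075). The padded spans share 9 bins. With states 1 to 3 alone the difference was 42.0 points (exact test, adjusted p = 0.00586), the count being then without state 4, which fills the region before the start of Gstp2 in 7 strains. How reads from copies within a cluster were assigned was not given in the sources used here. Values of Gstp1 against Gstp2, of Gsta1 against Gsta2, and among Gstm1, Gstm2 and Gstm3 are uncertain to that extent.

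Gstt1, the theta-class enzyme known for acting on small halogenated compounds such as dichloromethane, was the least variable in its share. It lies at chr10:75783813-75798584 on the minus strand, and its share of 94 bins was 89.4% in A/J, C57BL/6J and NOD/ShiLtJ, 86.2% in CAST/EiJ and 90.4% in the other 5 strains. The arrangement of states inside that share still set CAST/EiJ apart. CAST/EiJ had 54 bins in state 1, against 69 to 81 in the others, and 7 in state 4 where all other strains had state 1, and differed from the other 8 strains in 33.5% of bins, against 14.4% to 24.1% for the others. The listed start, chr10:75797731, lies inside the gene span given above and not at its end. The bin of that start was in state 3 in 8 strains and in state 1 in PWK/PhJ.

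Members differed in the number of strains with state 3 near the start. State 3 occurred within 5 bins of the start in all 9 strains at Gstm1 and Gsta3, in 8 at Gstt1, 6 at Gstp2, 5 at Gstp1 and 1 at Gsta2, and in none at Gsta1, Gstm2 and Gstm3. At Gstp2 and Gsta2 it lay near the start but not in the start bin of any strain. State 3 took 40.4% ± 1.21 (SD, n = 9) of all 16457 start bins, against 0.928% of bins 10 kb to the left. Over all genes state 3 goes with CpG-rich starts: it was near the start in all 9 strains at 77.5% of promoters with a CpG observed-over-expected ratio of at least 0.75, and at 4.5% of the 4426 promoters with a ratio below 0.25. The ratio, taken over the 300-base window, was 0.682 at Gstp1, 0.568 at Gstm1, 0.471 at Gstp2, 0.383 at Gstt1, 0.213 at Gstm3, 0.161 at Gstm2, 0.160 at Gsta3, 0.131 at Gsta2 and 0.104 at Gsta1, against an all-gene median of 0.595. The value of Gstm1 is that of its first listed start. Its second listed start lies in the same bin and has a ratio of 0.357.

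Gsta3 is thus the member with state 3 in all strains at a CpG-poor start, a combination that 4.5% of CpG-poor promoters share. Gstp1, with the highest ratio of the members, had it in 5 strains.

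**Figure D4:**
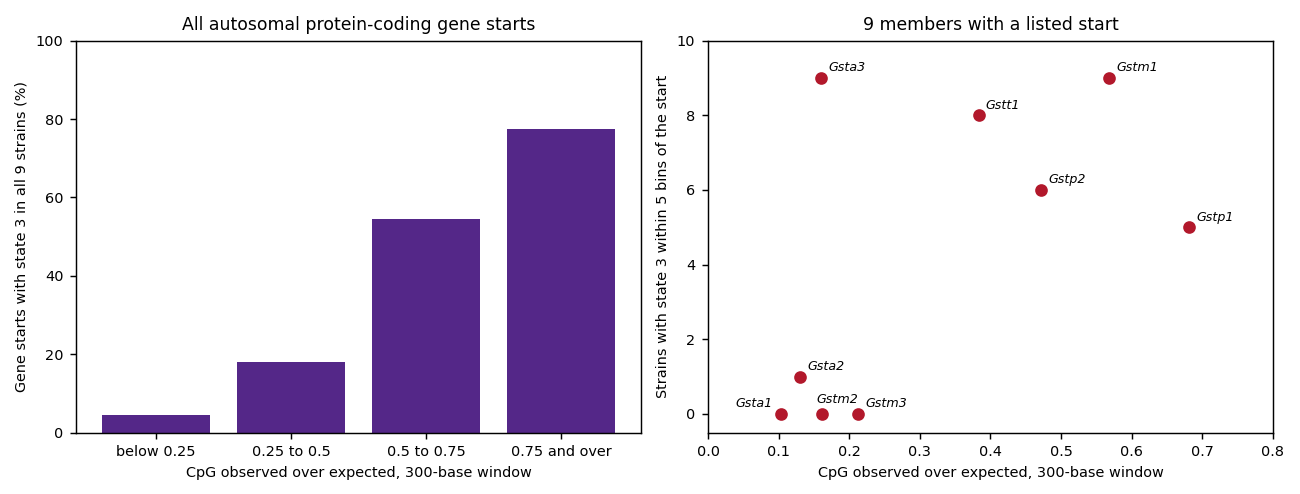
Left, percentage of gene starts with state 3 within 5 bins in all 9 strains, by class of CpG observed-over-expected ratio. Right, number of strains with state 3 there for the 9 members with a listed start, against the same ratio; Gsta3 lies at the upper left (0.160, 9 strains), apart from Gsta1, Gsta2, Gstm2 and Gstm3 at 0 or 1 strain. Gstm1 is placed by its first listed start.

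Discordance between strains was widely spread among the members. It was 54.5% at Gstm3 (percentile 99.2 of all genes), 43.1% at Gstm2 (95.1), 38.4% at Gstp2 (90.7), 36.5% at Gsta3 (88.2), 24.1% at Gsta2 (61.4), 20.7% at Gstm1 (51.8), 19.5% at Gstt1 (48), 15.8% at Gsta4 (37.7), 13.4% at Gstp1 (30.4) and 11.1% at Gsta1 (24.0). The members' median was 22.4% and that of all genes 20.1%, with 6 of 10 members above the latter. Among the 9637 genes with a mean share of at least 10% in states 1 to 4 the median was 26.0%, with 4 of 10 members above it. Bins in state 14 in all strains lower the measure. Over bins outside state 14 in at least 1 strain, the members' median was 35.1% and that of 20047 genes 34.9%, with 5 of 10 members above it. On that scale Gstp1 (percentile 1.89), Gstt1 (4.48) and Gstm1 (5.37) were among the least discordant genes and Gstm3 (98.3) and Gstm2 (90.2) among the most. These 2 contexts were added after the data were seen.

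**Figure D5:**
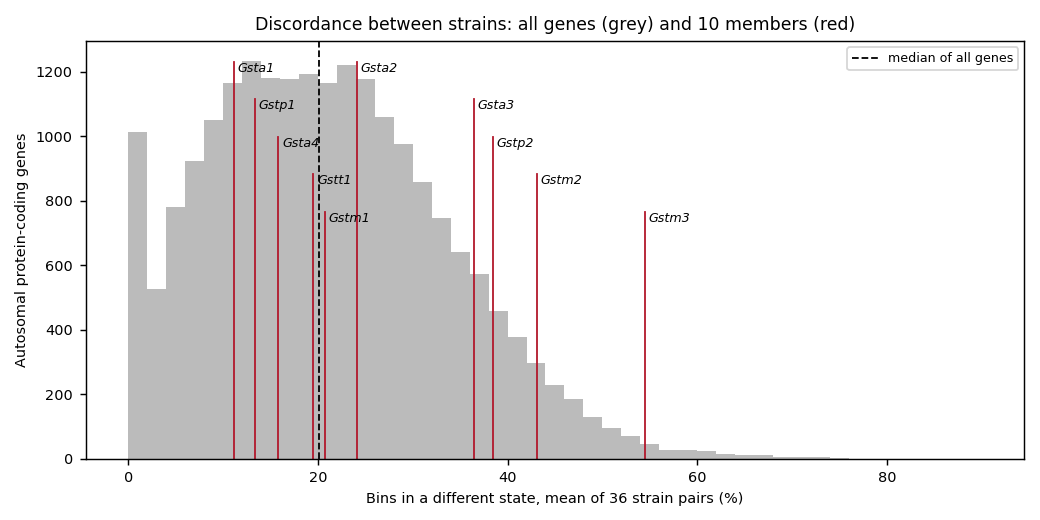
Distribution over 20665 autosomal protein-coding genes of the percentage of bins in a different state, averaged over 36 strain pairs (grey), with the 10 members as red lines and the all-gene median dashed. Gstm3, at 54.5%, lies in the right tail, and Gsta1, at 11.1%, on the left side.

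By strain, CAST/EiJ and PWK/PhJ differed most from the others over the members' bins, in 34.6% and 32.4%, against 22.3% to 26.2% for the other 7. Over all gene bins the same pair led, with PWK/PhJ at 21.1% and CAST/EiJ at 19.4%. Whether reads of all strains were aligned to the C57BL/6J reference was not given in the sources used here. The part of alignment in the differences between strains was not tested. A bin was private where 1 strain differed from a state shared by the other 8: the members had 124 such bins, of which CAST/EiJ held 50, PWK/PhJ 35, WSB/EiJ 14, NOD/ShiLtJ 12, DBA/2J 6, A/J 4, NZO/HlLtJ 3, and 129S1/SvImJ and C57BL/6J 0. Private bins of CAST/EiJ were 6.88% of the members' bins against 2.39% of all gene bins, and those of PWK/PhJ 4.81% against 3.68%. In the other 7 strains the members' share was at or below that of all gene bins, as in 129S1/SvImJ (0 against 0.991%) and A/J (0.55% against 1.29%). Private bins of all strains made up 17.1% of the members' bins and 14.7% of all gene bins. The members with the most were Gsta3 with 36, Gsta2 with 26, Gsta4 with 25 and Gstt1 with 20, while Gstm3, the most discordant, had 5, since several strains differed there at once.

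A/J was lowest at Gsta1, Gsta2, Gstm1, Gstp1 and Gstp2, and 129S1/SvImJ was highest, alone or tied, at 7 members. Over the gene bodies alone the mean share was 100% at both Gstm1 and Gstp1, so strains differed there only in the padding. At Gstp2 that mean was 93.9%, and most bins of A/J outside states 1 to 4 lay in the padding. A/J and 129S1/SvImJ had the lowest and highest shares over the members' bins together, 55.8% and 68.2% around a mean of 62.6% ± 3.78. Over all gene bins 129S1/SvImJ was also highest, at 15.6%, and NOD/ShiLtJ (11.2%) and A/J (11.6%) were lowest. The part of that in the order at the members was not tested. All bins of A/J outside states 1 to 4 at Gstp1 lie among the 9 bins shared with Gstp2. Of the differing bin pairs, 27.5% were between states 1 and 2, 13.2% between states 2 and 4 and 10.1% between states 2 and 6.

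The wild-derived strains CAST/EiJ, PWK/PhJ and WSB/EiJ were set against the 6 laboratory strains. The values of the 2 groups overlapped at all 10 members, where 1.55% of all genes showed no overlap (0.924% higher and 0.624% lower in wild-derived strains). Means were 69.6% in wild-derived and 83.7% in laboratory strains at Gstm2 (exact two-sided permutation test over 84 splits, p = 0.0357, adjusted over all genes 1), 64.6% and 83.3% at Gstm3 (exact permutation p = 0.167, adjusted 1), and 46.2% and 35.0% at Gsta2 (exact permutation p = 0.0714, adjusted 1). The smallest p of this design is 0.0119, and 0 of 20665 genes passed after adjustment, 749 having an unadjusted p under 0.05. At Gsta2 the groups did not overlap with state 6 counted as well, 47.5% to 59.4% in wild-derived against 38.6% to 45.5% in laboratory strains, a setting in which 2.51% of all genes showed no overlap. With states 1 to 4 they did not overlap at Gsta2 without PWK/PhJ (4.42% of all genes), at Gstm3 without NZO/HlLtJ (2.05%) and at Gstm2 without WSB/EiJ (6.29%).

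Other genes of the pathway were read from a list of 36, of which 35 were found. Among 15 other transferases and microsomal glutathione transferases, 7 had a mean share of at least 75% and the median discordance was 31.5%. Of 8 genes of glutathione synthesis and use, 2 had such a share, with a median discordance of 24.7%. Of 12 genes around Nfe2l2, 8 did, with a median discordance of 32.1%. Of all 20665 genes 6.88% had such a share. The all-gene median discordance was 20.1%, and 26.0% among genes with a mean share of at least 10%. The highest discordance was at Gstk1 (48.2%), the kappa-class transferase, Hmox1 (45.3%), heme oxygenase 1, and Gstm6 (44.5%), a further mu-class gene.

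Slc7a11, the cystine transporter subunit, had no bin in states 1 to 4 in any strain. Keap1, the inhibitor of Nfe2l2, was the listed gene whose wild-derived strains (85.5%, 94.2% and 92.8%) all lay above the laboratory strains (60.9% to 79.7%; exact permutation p = 0.0119, adjusted over all genes 1). Such a lack of overlap, higher in wild-derived strains, was seen in 0.924% of all genes, and 35 listed genes were read. Gstm6 was lowest in A/J at 40% and highest in NOD/ShiLtJ at 96.8%. Gstm7 was lowest in A/J at 44.9% and highest in PWK/PhJ at 100%, the strain lowest at Gstm3. The order of strains thus differed between genes of the mu class.

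By likeness to Gstm3, the member with the largest SD, the genes with the highest Pearson r of the share over the 9 strains among 6890 candidates were Pcolce (0.948), Ccdc162 (0.947) and Rufy1 (0.886), on chromosomes 5, 10 and 11. These are descriptions over 9 strains, in which the genes of a strain are read from the same segmentation.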

How the data were processed

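ChIP-seq libraries of 4 histone marks and input from hepatocytes of 9 strains are the source of the data, 117 libraries in all. The authors deposited 1 segmentation per strain, in which column 4 gives a state number, a category with no unit; per the file headers each belongs to 1 strain's hepatocytes, and the score column holds 0 throughout. Build mm10, FastQC 0.11.5 and MACS 1.4.2 are named in the submitters' processing notes; the aligner and the segmentation tool are not given in the sources used here. Samples were grouped by the strain in their labels. A further deposited file that joins the strains is identical to the strain files and was not used.

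Gene spans came from an annotation of GRCm38.p6, the assembly of mm10, and starts, strands and sequences from RefSeq promoter windows; 9 of 10 members matched, Gsta4 being missing. Every bin of 200 bp that overlaps a span padded by 2 kb was used. Discordance, the share of states 1 to 4 and the exact 3-against-6 permutation test were computed for all 20665 autosomal protein-coding genes, with Benjamini-Hochberg adjustment at 0.05; pairs of members were compared by the exact sign-flip test over 512 sign patterns. The strains are related by descent, so they are not independent draws, and the spread given is between strains, not mice. Gsta3 and Gsta4 were listed as a pair within a cluster but lie on different chromosomes.

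The members, gene lists and choice of states 1 to 4 were made with earlier results of these data known. All members are named; other genes were named by likeness to the most variable member, by having no bin in states 1 to 4, by non-overlapping groups or by the 3 highest discordances in the pathway list, and Gstm7 was added after its values were seen. Alternatives covered the padding, the set of states, leaving out each strain, a match within 1 bin, replacing single-bin segments, joining states 13 and 14, and leaving out bins in state 14 in all strains. The code was tested on simulated data. The tools were scipy 1.17.1, pandas 2.3.3, numpy 2.4.6, Biopython 1.88 and matplotlib 3.10.9 under Python 3.11.15.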

Additional observations from a re-analysis of the deposited data

Results flagged for a closer look

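Each member's share of states 1 to 4 and its discordance with the other 8 strains was searched for a strain that stands apart by Dixon's criterion for 9 values. Of 20 sets of 9 strains 3 passed, and chance flags about 1 in 20 for continuous, normally distributed values. The values here come from bin counts, with ties between strains as at Gstt1, so that rate is only approximate. At Gstt1 the share of CAST/EiJ was 86.2%, against 89.4% to 90.4% in the others. At Gstt1 CAST/EiJ also differed from the other 8 strains in 33.5% of bins, against 14.4% to 24.1%, a set that passed the limit by its last digit only. At Gsta2 CAST/EiJ differed from the others in 43.1% of bins, against 18.7% to 25.9%. CAST/EiJ held the most private bins over all members too, 50 of 124, so the 3 sets are not independent.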

How the results depend on the processing

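No paired analysis was possible because same-numbered mice of different strains have no values of their own in the files; members were compared within strains instead. Depth is unknown and limits every value to an unstated degree. The count of neighbouring members that differed, 3, became 5 with 5 kb of padding and 9 with states 1 to 3, and ranged from 2 to 4 with each strain left out; the paralog count of 4 became 3 with 5 kb of padding and with all states other than 14 (Gstm1 minus Gstm3 9.05 points, exact test, adjusted p = 0.0938), 6 with states 1 to 3, and was 4 in the other alternatives. The number of members whose wild-derived and laboratory strains did not overlap, 0, became 1 with state 6 added, 2 with all states other than 14 (Gsta2 and Gstt1; 3.27% of all genes), and ranged from 0 to 1 with each strain left out. The members' median discordance of 22.4% became 16.7% when a match within 1 bin counted as equal and 35.1% over bins outside state 14 in at least 1 strain, and ranged from 19.2% to 23.2% with each strain left out. Gstm3 was the most discordant member in all 15 alternatives. Signs turned with no padding for Gsta1 minus Gsta4 (-0.36 points), Gsta3 minus Gstp2 (-6.11) and Gstp2 minus Gstm2 (-2.06); with 5 kb for Gstt1 minus Gsta3 (-9.40), Gstm1 minus Gstt1 (-3.70), Gsta3 minus Gstp2 (-4.29) and Gstm2 minus Gstm3 (-9.53); with states 1 to 3 for Gstm1 minus Gstt1 (-6.00) and Gstp2 minus Gstm2 (-18.6). They also turned with state 6 added for Gstt1 minus Gsta3 (-8.42), Gstp1 minus Gstm1 (-1.31) and Gstm2 minus Gstm3 (-4.75), and with all states other than 14 for Gsta1 minus Gsta4 (-5.90), Gstt1 minus Gsta3 (-3.78) and Gstm2 minus Gstm3 (-3.64). With each strain left out the range took in both signs for Gstp1 minus Gstm1 (-0.72 to 0.81), Gstt1 minus Gsta3 (-0.66 to 1.07), Gsta3 minus Gstp2 (-3.16 to 3.46) and Gstm2 minus Gstm3 (-2.41 to 4.17). Of all these pairs only Gsta1 minus Gsta4 had passed the test as reported. With all states other than 14 it passed in the opposite direction (exact test, adjusted p = 0.0469). Gstt1 minus Gsta3 passed as a negative difference with 5 kb and with state 6 added (exact test, adjusted p = 0.00879 in both). With states 1 to 3 so did Gstm1 minus Gstt1 (exact test, adjusted p = 0.0234) and Gstp2 minus Gstm2 (exact test, adjusted p = 0.00703). The counts of pairs that differed take either direction.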
